A study of Homo sapiens with 72 samples.

Results

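Gene expression in directly α-irradiated fibroblasts was compared with that in sham-irradiated controls 4 hours after exposure. The 8 arrays used are those whose labels give the irradiated or the control group at 4 hours, replicates 1 to 4 in each, out of 72 arrays in the series. IMR-90 is a cell strain derived from normal human lung, used at early passage. The series covers irradiated, bystander and control cells at 6 times in 4 separate experiments. The irradiated population sat on the thin Mylar base of an outer dish and received 0.5 Gy of α-particles (accelerated helium ions), and bystander cells grew on shielded strips of an inner dish placed in the same medium. Control dishes were handled in the same way with a dose of 0 Gy. The strips stop the particles, so the bystander cells shared medium and neighbours with hit cells without being crossed themselves. The labels name no transgene or deletion in any group, and IMR-90 is the strain of 1 donor, so the 4 experiments are repeat cultures of the same strain. The arrays measure RNA per mass of RNA labelled, so fewer cells with a transcript and less of it in each cell cannot be told apart.

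Ionizing radiation breaks DNA, and cells with breaks switch on a set of genes that halt the cell cycle, feed back on the damage signal and can prepare the cell for death. Fibroblasts also answer stress by releasing cytokines and chemokines, many of them under the control of the transcription factor NF-κB, and by making enzymes that cut the surrounding matrix. Metallothioneins are small proteins that bind zinc and other metals, and their genes respond to free metal ions, glucocorticoids and oxidants.

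Levels are given as log2 intensity after every array was scaled to the same 75th percentile, and they can be compared between arrays for 1 probe but not between probes. A ratio is the log2 level in irradiated cells minus that in control cells of the same experiment, and is given as mean ± SD over the 4 experiments. A probe was called where limma's moderated test gave a Benjamini-Hochberg adjusted p below 0.10 over 25246 probes. The test took its error from all 12 arrays at 4 hours, bystander arrays included. Before scaling, the 75th percentile lay between 9.74 and 10.78 on the irradiated arrays and between 9.71 and 10.44 on the control arrays. The scanner marked 68.2% to 71.3% of spots as clearly brighter than background in irradiated and 67.9% to 69.7% in control samples, and 0 as saturated. The number of arrays limits the precision. All 12 fibroblast markers, among them COL1A2, DCN and VIM, were well above background on all 8 arrays, with a summed log2 level of 19.50 to 20.12 in irradiated and 19.78 to 20.44 in control cells. The summed level of 7 epithelial markers was 8.47 to 9.35 and 8.92 to 9.85, the brightest probe was that of SFTPC, which like the keratin KRT14 was above background on all 8 arrays. CDH1 and ESRP1 were above it on 3 of 4 arrays in each group, EPCAM on 4 irradiated and 2 control arrays, CLDN4 on 1 irradiated array, and the keratin KRT5 on 0. For 7 leukocyte markers the summed level was at least 8.21 in irradiated and at most 9.54 in control cells, TYROBP, CD14, ITGAM and CD3E were above background, and PTPRC and LYZ were below background throughout. The summed level of 6 endothelial markers was 13.00 to 13.69 and 12.87 to 14.04. Of these TEK, which had the brightest probe, VWF and KDR were above background on all 8 arrays, CLDN5 on 3 irradiated and 4 control arrays, CDH5 on 1 in each group and PECAM1 on 0. The part of such markers in the results was not tested.

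At 4 hours 253 probes were called, 195 higher and 58 lower in irradiated cells, which is 1.00% of the probes tested (0.772% higher and 0.230% lower). With 1 probe for each gene in the reference annotation, 151 of 12820 genes were called (1.18%), 112 of them higher (0.874%) and 39 lower (0.304%). The median ratio of all 12820 genes was -0.03. Called genes that were higher had a median ratio of 1.23, and 78 of the 112 were raised by at least 2-fold. Those that were lower had a median of -0.99, with 19 of 39 lowered by at least 2-fold. Of all genes, called or not, 127 (0.991%) were higher by that much and 129 (1.01%) were lower by that much. The direction was shared by all 4 experiments in 149 of the 151 genes. The remaining genes, LOC100190986 and NR1D1, had no control value in experiment 2 and the same direction in every experiment measured. Calling by p favours genes of shared direction, and the share over all genes is not given here. In 76 of the 112 and 30 of the 39 genes the 4 irradiated arrays did not overlap with the 4 control arrays, which over all genes held for 1.90% in the upward and 1.82% in the downward direction. Experiment 3 gave the smallest rises, with a median of 0.95 over the 112 genes against 1.17, 1.27 and 1.49 in experiments 1, 2 and 4. Experiment 4 gave the largest falls, with a median of -1.42 over the 39 genes against -0.84, -0.72 and -0.93 in experiments 1, 2 and 3.

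**Figure D1:**
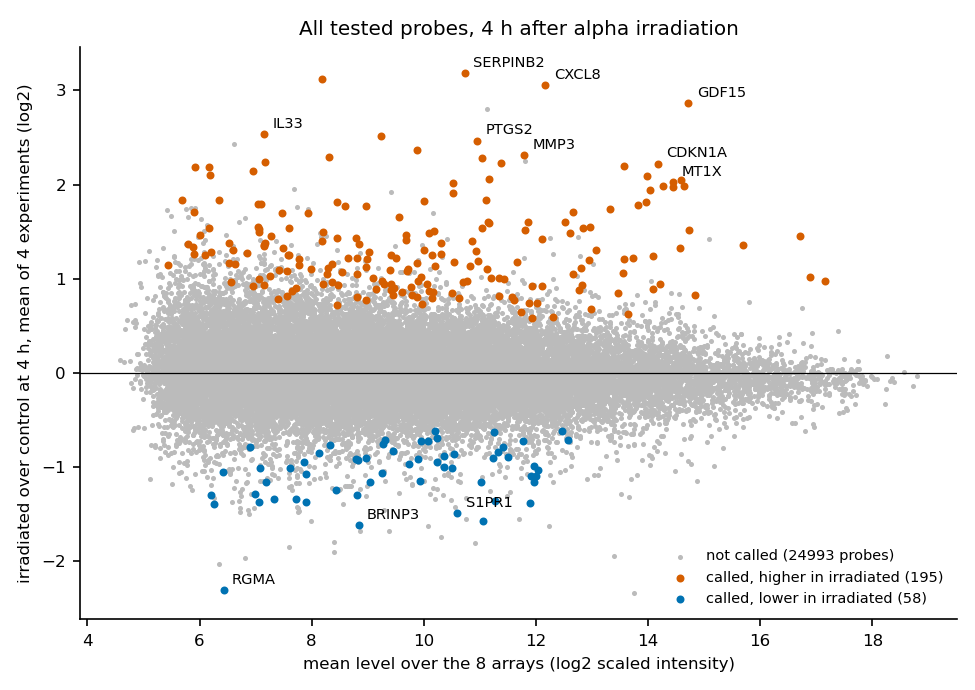
Mean log2 ratio of irradiated over control at 4 h (vertical axis) against mean log2 level over the 8 arrays (horizontal axis), 1 point for each of the 25246 probes tested. Called probes number 195 above and 58 below 0, and the most extreme labelled genes are SERPINB2 and RGMA.

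The count varied with the experiments included and with the pairing. It was 21 probes without experiment 1, 334 without experiment 2, and 134 without experiment 3 or experiment 4. It was 26 probes with no replicate block, and 51 probes, all higher, when only the 8 arrays were fitted. Irradiated and control cells of experiments 1, 3 and 4 shared a slide and those of experiment 2 did not, and with the slide as a further block 592 probes were called, 367 higher and 225 lower. Scaled to added control transcripts the median ratio of all probes was -0.12 and the split was 74 higher and 73 lower. All 151 called genes kept their direction in these and the other settings tried, which is no separate support. Leaving out an experiment cannot reverse ratios that share a sign. The replicate block, the filters and the variance trend alter the test more than the ratio. Of the 151 genes, 12 stayed called whichever experiment was left out, among them FGF2, IL33, KYNU, MMP1, MMP10, MMP3, PTGS2, SLC16A6, TCIM, TIGAR and VWCE.

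**Figure D2:**
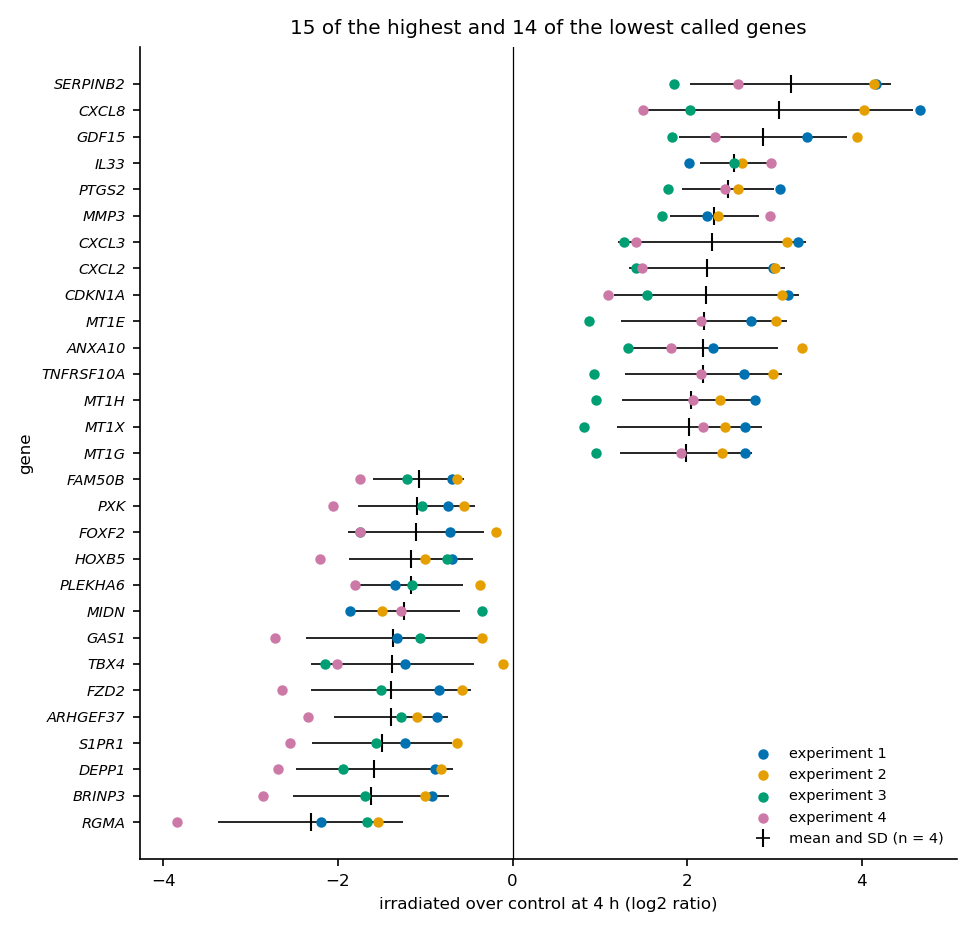
Log2 ratio of irradiated over control at 4 h for the 15 highest called genes and 14 of the 15 lowest; coloured points are the 4 experiments and black marks the mean with its SD. All points of the upper 15 genes lie above 0, and all points of the lower 14 lie below it, with RGMA in experiment 4 the farthest.

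Of 24 genes that arrest the cycle or feed back on the damage signal, 13 were called higher and 0 lower, their median ratio was 1.02 against -0.03 for all genes, and 23 of 24 ratios were positive. The 13 became 1 without experiment 1, 8 without experiment 2 or experiment 3, and 5 with no replicate block. They were 6 with no scaling or with the authors' value table, 5 with added transcripts and 4 with only the 8 arrays. CDKN1A encodes the cyclin-dependent kinase inhibitor p21. Its control levels were 12.15, 12.10, 13.81 and 14.20 in experiments 1 to 4, and its irradiated levels were 15.31, 15.18, 15.35 and 15.29. The irradiated arrays thus lay within a narrow band above all controls, so by construction the ratio was smaller in experiments 3 and 4, where the control was high. The ratio was 2.22 ± 1.06, or 4.66-fold, with an adjusted p of 0.0155. GDF15, a secreted stress cytokine of the TGF-β family, stood at 12.99, 12.05, 14.18 and 13.92 in controls and at 16.36, 15.99, 16.01 and 16.25 after irradiation. This was a rise of 2.87 ± 0.96 (adjusted p = 0.0155), again with no overlap and with the smaller ratios where the control was high. GADD45A, which binds proliferating cell nuclear antigen and halts growth, rose by 1.71 ± 0.67 (adjusted p = 0.00805). MDM2, the ubiquitin ligase that closes the feedback loop of the damage response, read 5.55, 5.55, 5.39 and 4.62 in controls and 6.94, 6.49, 6.61 and 6.93 after irradiation, a ratio of 1.47 ± 0.59 (adjusted p = 0.0554).

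The smallest spread among the 13 called belonged to TRIAP1, an inhibitor of apoptosis, at 0.81 ± 0.06 (adjusted p = 0.0233). TIGAR, which lowers glycolytic flux, had a ratio of 1.17 ± 0.23 (adjusted p = 0.0057), with ratios of 1.03, 1.52, 1.07 and 1.08, of which that of experiment 2 lay above the others. The other called members were SESN1 and RRM2B, which limit oxidative and nucleotide stress, the kinase PLK3, the nuclease AEN, the RNA-binding protein ZMAT3, the ferredoxin reductase FDXR and the translesion polymerase POLH, with ratios from 0.97 to 1.42. DDB2, BTG2 and PHLDA3 had ratios of 1.00 ± 0.79, 1.11 ± 0.72 and 0.85 ± 0.74 and were not called (adjusted p = 0.176, 0.165 and 0.177).

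Among 17 genes of apoptosis, 3 were called higher and 0 lower, with a median of 0.21 (0.37 without experiment 3), and all 3 were death receptors. Without experiment 1, or with the authors' value table, 0 of the 17 were called, and 1 with no scaling. TNFRSF10A, a receptor for the ligand TRAIL, read 4.55, 3.78, 5.55 and 5.42 in controls and 7.21, 6.76, 6.48 and 7.58 after irradiation. The groups were apart on every array, at 2.18 ± 0.90 (adjusted p = 0.0172). FAS, the receptor of Fas ligand, rose by 1.17 ± 0.23 (adjusted p = 0.00565), and the second TRAIL receptor TNFRSF10B by 1.05 ± 0.52 (adjusted p = 0.0402). The decoy receptor TNFRSF10C had a ratio of 1.20 ± 0.58 and missed the limit (adjusted p = 0.122). BAX, which opens the mitochondrial membrane, had a ratio of 0.06 ± 0.62. For BBC3, a trigger of mitochondrial death, the probes disagreed. One probe rose by 0.87 ± 0.23 (adjusted p = 0.0729), a second read 1.26 ± 0.82 (adjusted p = 0.117), and the brightest, which stood for the gene in the list, read -0.16 ± 0.88.

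Genes for double-strand break repair were called in 0 of 12 cases. Their ratios ran from 0.03 to 0.74 with a median of 0.30 (0.15 without experiment 4), and XRCC6 and XRCC5, which form the Ku end-binding complex, were at 0.12 ± 0.20 and 0.03 ± 0.15.

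**Figure D3:**
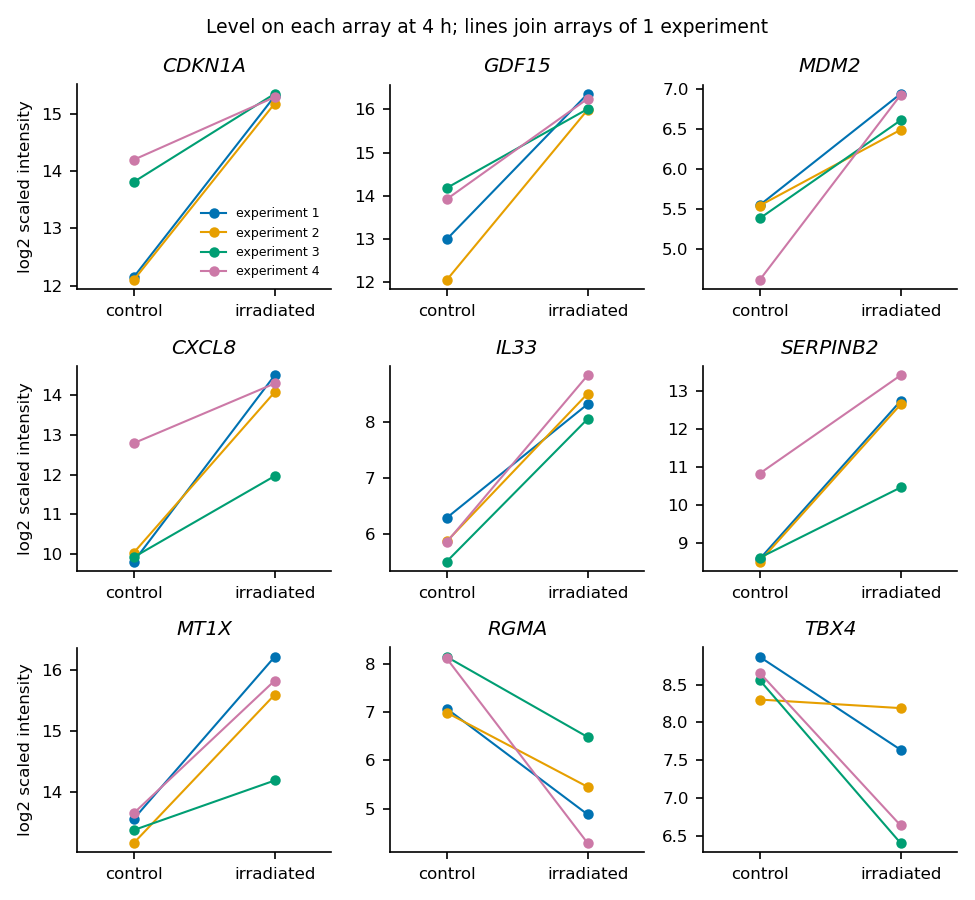
Log2 scaled intensity of 9 genes on each control and irradiated array at 4 h, with a line joining the 2 arrays of an experiment. CDKN1A and GDF15 reach nearly the same irradiated level from different control levels, while CXCL8 and SERPINB2 start higher in the control of experiment 4.

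Chemokines and cytokines were among the genes that rose. All 6 CXC chemokines tested had positive ratios, 4 were called higher, and their median was 1.79. Of the 6, 0 were called without experiment 1 or with no replicate block, and 2 without experiment 2. CXCL8 (interleukin-8), which attracts neutrophils, read 9.82, 10.04, 9.93 and 12.78 in controls and 14.49, 14.06, 11.96 and 14.28 after irradiation. Its control was high in experiment 4 and its irradiated level low in experiment 3, so the groups overlapped although each ratio was positive, at 4.67, 4.02 and 2.03 in experiments 1 to 3 and smaller in experiment 4. The mean was 3.06 ± 1.53, or 8.31-fold (adjusted p = 0.0339). CXCL3, CXCL2 and CXCL1, which share its receptor, rose by 2.28 ± 1.08, 2.22 ± 0.89 and 1.35 ± 0.68 (adjusted p = 0.0377, 0.0414 and 0.0305). CXCL5 was at 0.87 ± 0.59 by its brighter probe (adjusted p = 0.176), and its other probe was called at 2.15. CC chemokines, which attract monocytes, were called in 0 of 3 cases, and CCL2 was at -0.07 ± 1.02.

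Promoters of 3 called CXC genes, which lie on chromosome 4, are shown because they share a short sequence. Each line gives the 250 bases before the start site of RefSeq (build GRCh38.p14), 5′ to 3′ on the gene's strand, with matches to the κB letters GGNNTTTCC on either strand in capitals. CXCL8 lies at chr4:73740319-73740568 on the forward strand, CXCL2 at chr4:74099196-74099445 and CXCL3 at chr4:74038690-74038939, both on the reverse strand.
CXCL8: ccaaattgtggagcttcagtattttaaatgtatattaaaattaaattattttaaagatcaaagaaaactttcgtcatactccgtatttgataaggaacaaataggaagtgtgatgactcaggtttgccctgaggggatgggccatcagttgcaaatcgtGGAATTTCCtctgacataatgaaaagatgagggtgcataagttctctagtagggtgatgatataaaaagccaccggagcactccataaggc
CXCL2: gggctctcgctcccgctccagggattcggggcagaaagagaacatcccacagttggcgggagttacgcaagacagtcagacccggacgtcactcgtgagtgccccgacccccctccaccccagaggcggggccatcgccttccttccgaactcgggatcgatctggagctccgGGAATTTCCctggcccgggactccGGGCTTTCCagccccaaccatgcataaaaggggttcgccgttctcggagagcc
CXCL3: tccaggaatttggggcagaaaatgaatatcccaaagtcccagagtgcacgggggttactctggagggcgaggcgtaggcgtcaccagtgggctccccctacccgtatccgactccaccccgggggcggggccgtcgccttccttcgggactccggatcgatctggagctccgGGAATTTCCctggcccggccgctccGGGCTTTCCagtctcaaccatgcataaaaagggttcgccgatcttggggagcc
CXCL8 held 1 match, beginning 91 bases before the start, and CXCL2 and CXCL3 held 2 each, the nearest 53 bases before it. All 6 CXC promoters held at least 1 match, as did 5.48% of 27305 promoters of the same length. Of the 77 promoters found for genes called higher 11 (14.3%) held one, and of 29 for genes called lower 0. A match is a stretch of letters and no evidence of binding.

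In the interleukin-1 family 3 of 5 genes were called higher and 0 lower, and 1 without experiment 1 or with no replicate block. IL33, an alarmin of the nucleus, changed most evenly, from 6.29, 5.87, 5.51 and 5.86 in controls to 8.31, 8.50, 8.05 and 8.82. The groups were clearly apart, at 2.54 ± 0.39 (adjusted p = 0.00201). IL1A rose by 1.84 ± 0.82 and IL1B by 1.60 ± 0.96 (adjusted p = 0.0208 and 0.0574). Of 13 genes of the interleukin-6 family 2 were called, LIF at 1.54 ± 0.51 and IL11 at 1.32 ± 0.80 (adjusted p = 0.0143 and 0.061). Those called higher numbered 0, 1, 3 and 1 without experiments 1, 2, 3 and 4, and without experiment 2 another 1 was called lower. IL6 itself read 9.35, 9.18, 9.37 and 11.01 in controls and 13.52, 13.59, 10.17 and 12.84 after irradiation. Its ratio of 2.80 ± 1.77 was positive in every experiment and missed the limit (adjusted p = 0.102), with a control in experiment 4 above the irradiated array of experiment 3.

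Of 19 NF-κB subunits and inhibitors 4 were called higher and 0 lower, with a median of 0.54, and without experiment 1 or with no replicate block 0 and 1 were called. Without experiment 4 the median was 0.35, and with added transcripts 2 were called. The called genes were TNFAIP3, a ubiquitin-editing inhibitor (1.41 ± 0.37, adjusted p = 0.0117), the nuclear cofactor NFKBIZ (1.26 ± 0.51, adjusted p = 0.0172), the subunit RELB (1.24 ± 0.50) and BIRC3 (1.69 ± 0.76). NFKBIA, the classical inhibitor, was at -0.16 ± 0.31 and RELA at -0.25 ± 0.44, neither of them called. A further list of 15 effectors that cytokines induce had 5 called higher and 1 lower, with 1 and 2 higher without experiments 1 and 2, and 2 with no scaling or with added transcripts. PTGS2 (cyclooxygenase-2), which makes prostaglandins, went from 9.06, 9.39, 10.39 and 10.03 to 12.13, 11.97, 12.17 and 12.47. Here too the irradiated arrays lay closer together than the controls did, at 2.47 ± 0.53 (adjusted p = 0.00433). GCH1 and SOD2 rose by 1.49 ± 0.43 and 0.94 ± 0.29, the adhesion molecule ICAM1 by 1.10 ± 0.57, and CD69 by 1.16. The transcription factor IRF1 fell by 0.93 ± 0.32 (adjusted p = 0.061). Interferon-stimulated genes had a median of -0.39 (-0.67, -0.21 and -0.25 without experiments 2, 3 and 4) with 0 of 11 called, and ISG15 was at -0.72 ± 0.96. For complement 0 of 11 were called, and C1S was at -0.30 ± 0.49.

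Of 11 metallothionein genes tested 8 were called higher and 0 lower, and the median ratio was 1.99. MT1X read 13.56, 13.16, 13.37 and 13.65 in controls and 16.23, 15.60, 14.19 and 15.83 after irradiation. Controls lay close together and the irradiated array of experiment 3 was low, so the ratios were 2.67, 2.44, 0.82 and 2.18, with a mean of 2.03 ± 0.83 (adjusted p = 0.0221). MT1E, MT1H, MT1G and MT1B were lowest in experiment 3 as well, with means of 2.20, 2.04, 1.99 and 1.98, and MT2A rose by 0.97 ± 0.38 (adjusted p = 0.0615). MT1F and MT1M had larger and more scattered ratios, 2.43 ± 2.44 and 2.25 ± 1.67, and were not called. MT3, the brain form, was at -0.67. The coding sequences of these genes are nearly identical, so a probe can take up RNA of several members and the 8 calls are not 8 separate measurements. Without experiment 1, and with no replicate block, 0 of the 11 were called, and without experiment 4 there were 4.

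The metallothionein promoters are shown because the genes lie side by side on chromosome 16 and carry the sequence by which metals act on them. Capitals mark matches to TGCACNC or TGCGCNC, the core of the metal response element, on either strand. The windows are chr16:56682220-56682469 for MT1X, chr16:56669564-56669813 for MT1H and chr16:56608334-56608583 for MT2A (GRCh38.p14, forward strand).
MT1X: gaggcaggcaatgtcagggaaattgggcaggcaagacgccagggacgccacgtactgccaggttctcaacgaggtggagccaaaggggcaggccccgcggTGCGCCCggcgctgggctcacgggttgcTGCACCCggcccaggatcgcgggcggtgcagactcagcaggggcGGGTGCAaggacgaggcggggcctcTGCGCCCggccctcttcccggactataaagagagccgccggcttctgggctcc
MT1H: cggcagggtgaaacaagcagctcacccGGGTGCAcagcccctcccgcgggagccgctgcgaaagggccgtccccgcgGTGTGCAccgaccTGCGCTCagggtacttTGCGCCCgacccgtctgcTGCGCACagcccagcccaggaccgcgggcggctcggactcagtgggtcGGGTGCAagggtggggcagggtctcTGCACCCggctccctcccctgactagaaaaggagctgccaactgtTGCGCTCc
MT2A: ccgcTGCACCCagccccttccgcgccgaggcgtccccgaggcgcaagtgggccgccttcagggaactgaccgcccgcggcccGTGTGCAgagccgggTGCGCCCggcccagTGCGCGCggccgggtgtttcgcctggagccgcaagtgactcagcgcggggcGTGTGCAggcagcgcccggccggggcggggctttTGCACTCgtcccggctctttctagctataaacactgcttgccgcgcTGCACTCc
MT1X held 4 matches, MT1H 8 and MT2A 7, at separate positions. All 4 metallothionein promoters in the RefSeq table held at least 1, as did 24.7% of 27305 promoters, 44.2% of the 77 found for genes called higher and 24.1% of the 29 for genes called lower. Of 9 further genes of zinc handling 2 were called, the importers SLC39A8 (1.26 ± 0.49, adjusted p = 0.0389) and SLC39A14 (0.88 ± 0.40, adjusted p = 0.0589).

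Of 6 genes of plasminogen activation 1 was called higher, and 0 were called without experiment 1 or with no replicate block. The called gene was SERPINB2, plasminogen activator inhibitor 2, which had the highest ratio of all called genes. It read 8.58, 8.52, 8.62 and 10.84 in controls and 12.75, 12.66, 10.47 and 13.43 after irradiation. As for CXCL8, the control of experiment 4 was high and the irradiated level of experiment 3 low, and the ratio was 3.19 ± 1.16 (adjusted p = 0.0124). Of 10 matrix metalloproteinases and inhibitors 3 were called higher. The stromelysin MMP3 was at 2.31 ± 0.51 (adjusted p = 0.00215), the collagenase MMP1 at 1.81 ± 0.55 (adjusted p = 0.00433) and the second stromelysin MMP10 at 1.43 ± 0.39 (adjusted p = 0.00444). The levels of MMP3 differed widely between experiments, at 11.14, 10.59, 9.19 and 11.64 in controls and 13.37, 12.95, 10.90 and 14.59 after irradiation, so the groups overlapped while the paired ratios stayed between 1.71 and 2.95. Collagen chains were called in 0 of 13 cases with a median of -0.15 (-0.08 without experiment 4), and COL1A2 was at -0.42 ± 0.70. Enzymes that modify collagen were called in 0 of 13, hyaluronan genes in 0 of 7 and contractile genes in 0 of 13, the last with a median of -0.53 (-0.13 without experiment 3) and the largest ratio in MYH11 (-1.75 ± 1.53, adjusted p = 0.172). Some settings called genes of these lists lower. For enzymes that modify collagen this was 1 without experiment 2 or experiment 3, or with no scaling, and 2 with slide as a block. It was 1 contractile gene without experiment 1, with no scaling or with slide as a block, and 1 collagen chain without experiment 2 or with slide as a block. With added transcripts it was 1 such enzyme and 1 contractile gene.

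Secreted growth and differentiation factors were called singly. FGF2, which drives fibroblast growth, rose by 1.61 ± 0.50 (adjusted p = 0.00474) and was the 1 gene called among 17 growth factors. INHBA, a subunit of activin, and BMP2, a bone morphogenetic protein, rose by 1.79 ± 0.89 and 1.78 ± 0.79 (adjusted p = 0.0216 and 0.0203), 2 of 18 genes of TGF-β and BMP signalling. BMP4 was at -1.81 ± 1.45 and was not called (adjusted p = 0.129). In the stress lists HSPA4L (1.15 ± 0.20) and DNAJB4 (0.80 ± 0.37) were called among 13 heat shock genes, the cystine carrier SLC7A11 (1.19 ± 0.47, adjusted p = 0.0203) among 12 antioxidant genes, and the spermine oxidase SMOX (0.67 ± 0.26) among 8 of polyamine metabolism. Without experiment 1, 0 genes of these 3 lists, of TGF-β and BMP signalling or of zinc handling were called. Polyamine metabolism also had 0 calls without experiment 2, 3 or 4. Zinc handling had 0 without experiment 2 or experiment 4, and the heat shock genes had 0 without experiment 3. Immediate early regulators gave 1 call in 28, the phosphatase DUSP5 at 1.25 ± 0.78 (adjusted p = 0.0876), and 0, 0, 3 and 0 without experiments 1, 2, 3 and 4, with EGR1 at 0.09 ± 0.51 and FOS at -0.10 ± 0.76.

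**Figure D4:**
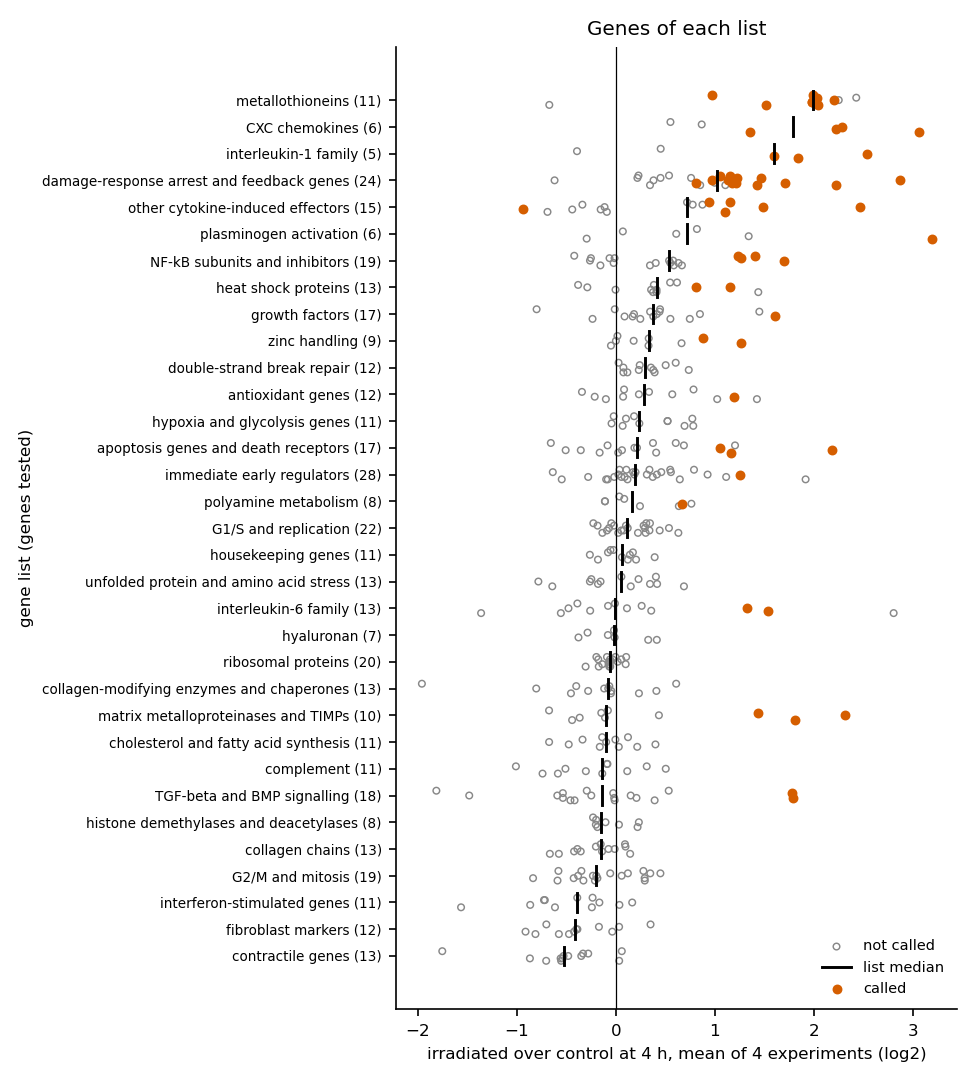
Mean log2 ratio of irradiated over control at 4 h for the tested genes of each list with at least 5 genes; filled points are called genes, open points are not called, and black bars are list medians. Metallothioneins, CXC chemokines, the interleukin-1 family and the damage-response genes have medians of 1.99, 1.79, 1.60 and 1.02, and the remaining medians lie between -0.53 and 0.72.

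Genes of G1/S and replication were called in 0 of 22 cases (median 0.11, but 0.34 without experiment 3 and -0.05 without experiment 4), those of G2/M and mitosis in 0 of 19 (median -0.20, or 0.00 without experiment 3), cholesterol and fatty acid synthesis in 0 of 11, hypoxia and glycolysis in 0 of 11, the unfolded protein response in 0 of 13 and histone demethylases and deacetylases in 0 of 8. Housekeeping genes had 0 of 11 and ribosomal proteins 0 of 20 calls, with medians from -0.02 to 0.15 and from -0.14 to -0.02 when 1 experiment was left out. The fibroblast markers were not called either (0 of 12), and their median was -0.41, or -0.15 without experiment 4. Without experiment 2, or with slide as a block, 2 of them were called lower, and with added transcripts 1 was. PPIA, a common reference gene, was at -0.26 ± 0.45. Over all probes 3786 had an unadjusted p below 0.05.

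Of the 39 genes that fell 1 was in the lists, IRF1. RGMA, a co-receptor for bone morphogenetic proteins, had the lowest ratio. It read 7.08, 6.99, 8.15 and 8.12 in controls and 4.88, 5.45, 6.49 and 4.28 after irradiation, a fall of 2.31 ± 1.06 or 4.97-fold (adjusted p = 0.0176), with no overlap. S1PR1, a receptor for sphingosine 1-phosphate, fell by 1.49 ± 0.80 (adjusted p = 0.0339), and BRINP3 by 1.62 ± 0.89 (adjusted p = 0.0389). TBX4, a T-box factor of lung mesenchyme, read 8.87, 8.30, 8.56 and 8.66 in controls and 7.64, 8.19, 6.41 and 6.64 after irradiation. Its ratios were -1.23, -0.11, -2.15 and -2.02, smallest in size in experiment 2, and their mean was -1.38 ± 0.94 (adjusted p = 0.0723). The homeobox factor HOXB5 (-1.16 ± 0.71) and the forkhead factor FOXF2 (-1.10 ± 0.78) were also among the 15 lowest, with adjusted p of 0.0756 and 0.0905. Chosen after their values were seen, other transcription factors among the called genes were TBX5 (-0.86 ± 0.37), HOXA5 (-0.79 ± 0.28) and PRDM6 (-0.97 ± 0.37). The Wnt receptor FZD2 fell by 1.39 ± 0.92 (adjusted p = 0.0922) and, also chosen after their values were seen, FZD4 fell by 0.95 ± 0.27 (adjusted p = 0.0191) and PTK7 by 0.99 ± 0.29 (adjusted p = 0.0221). GAS1, a membrane protein of growth arrest, fell by 1.37 ± 1.00 (adjusted p = 0.0839). Other genes of the lowest 15 were DEPP1, ARHGEF37, MIDN, PLEKHA6, PXK and FAM50B, with ratios from -1.58 to -1.07. The 58 probes that were lower became 0 when only the 8 arrays were fitted, 2 with no replicate block and 225 with slide as a block. They numbered 2, 98, 7 and 17 without experiments 1, 2, 3 and 4, and 73 with added transcripts.

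A few probes were well above background in only 1 of the groups and have a bound in place of a ratio, which sets the bright group's mean against the lowest signal that counted as above background on the dim arrays, or the dim probe's own signal where that was higher. There were 6 such probes in irradiated cells. ARC, an immediate early gene best known from neurons, was at least 8.36-fold higher, and EDA2R, a receptor of the tumour necrosis factor family, at least 2.43-fold higher. MVB12B was at least 1.70-fold higher, an unnamed transcript at least 2.60-fold, and for ZAP70 and CD40 the bound was under 1. Of 4 probes that were bright in controls alone, HOXB8 was at least 3.41-fold lower after irradiation and MAB21L1 at least 2.53-fold lower. These probes were picked for this pattern, so no test is given.

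Bystander cells of the same experiments were measured against the same control arrays, so both sets of ratios share their controls and are set side by side only. In bystander cells 150 probes were called against control (0.594%), 124 higher and 26 lower. The 24 arrest and feedback genes had a median ratio of 1.02 in irradiated and of -0.05 in bystander cells, with 13 and 0 called higher (all genes: 0.874% and 0.624%). CDKN1A was at 2.22 ± 1.06 and 0.18 ± 0.92, MDM2 at 1.47 ± 0.59 and -0.01 ± 0.42, SESN1 at 1.22 ± 0.54 and -0.12 ± 0.61, TIGAR at 1.17 ± 0.23 and 0.19 ± 0.14, and FAS at 1.17 ± 0.23 and 0.30 ± 0.05. CXC chemokines had medians of 1.79 and 1.76, the interleukin-1 family 1.60 and 1.85, and metallothioneins 1.99 and 1.86. CXCL8 was at 3.06 ± 1.53 and 3.33 ± 1.89, IL33 at 2.54 ± 0.39 and 2.34 ± 0.46, PTGS2 at 2.47 ± 0.53 and 2.65 ± 0.89 and MT1X at 2.03 ± 0.83 and 1.93 ± 1.09. Of the 112 genes higher after irradiation 63 (56.2%) were also called higher in bystander cells, and of the 39 lower 12 (30.8%) were called lower, against 0.133% of all genes. Among the falls RGMA was at -2.31 ± 1.06 and -1.90 ± 0.90, and TBX4 at -1.38 ± 0.94 and -1.06 ± 0.70.

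**Figure D5:**
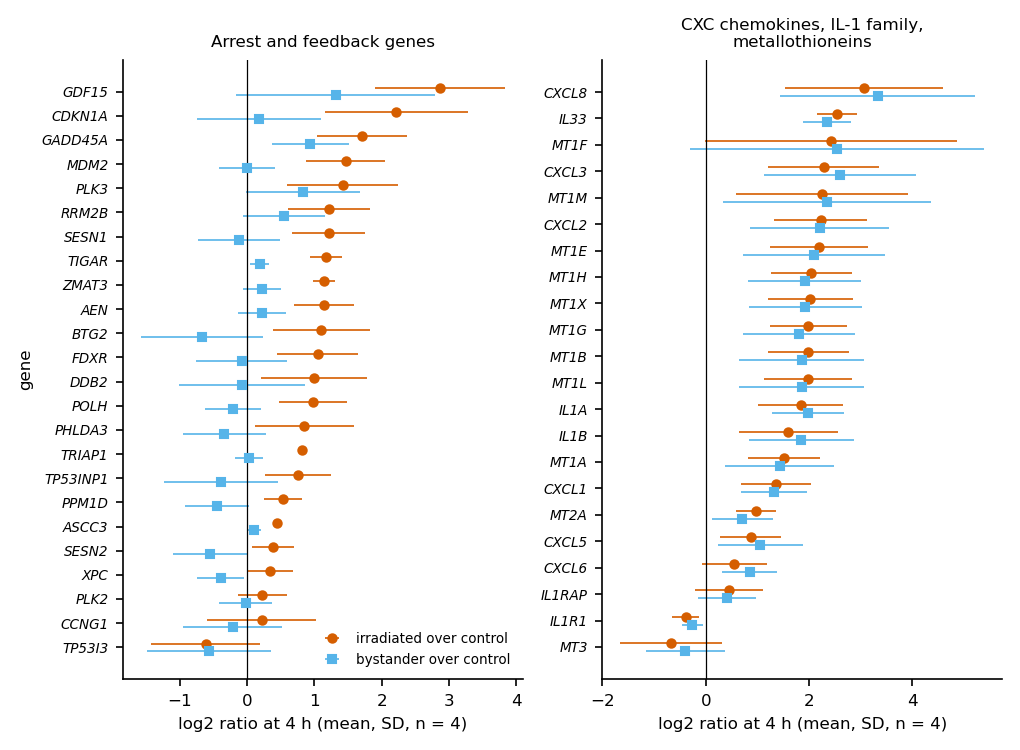
Mean log2 ratio to control at 4 h with SD over 4 experiments for irradiated (circles) and bystander (squares) cells; both use the same control arrays. In the left panel CDKN1A stands at 2.22 and 0.18 and MDM2 at 1.47 and -0.01, and in the right panel CXCL8 stands at 3.06 and 3.33.

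The direct test of irradiated against bystander cells called 2 probes, both higher in irradiated cells (0.00792%), and 327 had an unadjusted p below 0.05. One was the BBC3 probe that also passed against control, higher by 1.42 ± 0.32 in 4 of 4 experiments (adjusted p = 0.0984). The other was a probe for GDNF, a neurotrophic factor, whose levels of 9.41, 9.50, 9.66 and 9.28 after irradiation lay above 7.94, 7.92, 7.95 and 7.17 in bystander cells. The difference was 1.72 ± 0.28 (adjusted p = 0.0984), and the same probe was 2.30 ± 0.39 above control (adjusted p = 0.00215). A brighter GDNF probe did not follow, at -0.23 ± 0.70 against control. CDKN1A, FAS, POLH, TIGAR and SESN1 missed the limit in this test, with adjusted p of 0.154, 0.154, 0.154, 0.124 and 0.195, and for CXCL8, IL33 and MT1X the adjusted p was 1.00. With 1 probe a gene 0 genes were called, since neither probe is its gene's brightest, and 0 also with no replicate block, median scaling or quantile normalization. The next settings were chosen for this contrast after seeing the data. When only the 8 arrays of the 2 groups were fitted, 42 genes were called, all higher in irradiated cells, and 17 of them belonged to the 24 arrest and feedback genes. With normexp background correction 11 genes were called, 6 of them in that list.

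The 4 hour ratio was also set beside those at 2 and 6 hours, which come from other arrays of the same experiments. At 2 hours 17 of 24979 probes were called (0.0681%), all higher, and at 6 hours 3321 (13.3%), 1580 higher (6.33%) and 1741 lower (6.97%). These calls come from 1 fit of the 24 irradiated and control arrays at 2, 4 and 6 hours, without bystander arrays. The calls at 4 hours come from the 12 arrays of that time, bystander arrays included. Counts and shares of calls are therefore not like for like between the times. Of the 112 genes higher at 4 hours 110 were measured at the other times. At 2 hours 107 of the 110 had the same sign and 9 were called (8.18%, against 0.0868% of all genes), and at 6 hours 106 had the same sign and 87 were called (79.1%, against 7.99%). Of the 38 measured genes that were lower at 4 hours, 34 had the same sign at 2 hours with 0 called, and 38 had the same sign at 6 hours with 25 called (65.8%, against 7.60% of all genes). Over all genes the sign at 4 hours was that at 2 hours in 73.1% and that at 6 hours in 76.1%. The calls at 4 hours made up 5.67% of the 1975 genes called at 6 hours and 81.8% of the 11 called at 2 hours. IL33 had ratios of 0.72 ± 0.36 at 2 hours, 2.54 ± 0.39 at 4 hours and 3.26 ± 0.84 at 6 hours, MMP3 1.57 ± 0.43, 2.31 ± 0.51 and 3.83 ± 1.60, CDKN1A 1.72 ± 0.39, 2.22 ± 1.06 and 1.49 ± 0.75, and MT1E 1.53 ± 0.18, 2.20 ± 0.95 and 1.56 ± 0.51. The tests of the difference between the ratio at 4 hours and that at 2 or at 6 hours called 0 probes each, with 539 and 663 probes at an unadjusted p below 0.05 in limma, so no gene was shown to differ between these times.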

How the data were processed

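RNA from IMR-90 cells was labelled with Cy3 and hybridised to one-colour Agilent Whole Human Genome arrays. Per the file headers, Agilent Feature Extraction 9.1.3.1 produced the deposited intensities, which are background-subtracted and not scaled between arrays. The authors' value table holds log2 values that matched the log2 of the deposited processed intensity within 0.001 for 99.889% to 99.956% of values per array, so its scale is log2 with no centring, and its columns at 4 h had medians from 8.51 to 9.65. It was used as an alternative. The deposited files hold no column of other samples.

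Here control spots were left out, spots of a probe were averaged (41000 probes), log2 intensity was taken, and each array was set to the same 75th percentile. A probe was dropped if over 10% of all 72 arrays had it dim or marked uneven, which left 25246. All 12 arrays at 4 h were fitted in limma 3.58.1 (R 4.3.3) with group and experiment as terms, a variance trend and 6 residual degrees of freedom; the comparisons with 2 h and 6 h used 24 arrays for each pair of times and a test of the difference of ratios. Calls used a Benjamini-Hochberg adjusted p below 0.1. A gene was represented by its brightest probe over the 12 arrays. Tables were made in Python 3.11.15 with pandas 2.3.3 and numpy 2.4.6, and the fit was tested on simulated data.

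Replicate numbers pair the samples, because the methods prepared each experiment's dishes from a common pool of cells. Of 12 same-numbered pairs 10 correlated above 0.1 in their deviations from the group means (median 0.37, against -0.13 for different numbers). Such deviations cancel within each group, so positive values for same-numbered pairs make the others negative, and the latter are no separate reference. In experiments 1 to 4 the irradiated and control arrays correlated at 0.09, 0.24, 0.40 and 0.21. Irradiated and bystander arrays correlated at 0.60, 0.67, 0.80 and 0.84, and bystander and control arrays at -0.008, 0.35, 0.47 and 0.22. The labels call them biological replicates. The p-values at 4 h rest on the spread left over all 12 arrays, bystander arrays included, once group and experiment are fitted. They do not measure the spread of the 4 irradiated-to-control ratios alone.

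Genes named were the 15 highest and 15 lowest called genes that moved the same way in 4 experiments, up to 4 members of each of 37 lists (489 genes; the called members with the smallest adjusted p, or the brightest 2), genes that the study's text refers to by name, and the called genes of the other contrasts. A few genes that these rules name are not reported here. Further called list members were named after their values were seen. The members and lists were chosen with earlier results of these data known. Gene names are RefSeq symbols (GRCh38.p14) for the 25398 probes whose accession was found there, and otherwise those of the array design. With these names 27908 probes had a symbol in RefSeq, which also gave the promoters. Alternatives were other scalings (none, median, quantile, added transcripts), normexp background correction (offset 50), other filters, no replicate block, slide as a block, only the arrays compared, no variance trend, an adjusted p below 0.05 and leaving out each experiment.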

Additional observations from a re-analysis of the deposited data

Results flagged for a closer look

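Among 212 groups of 4 arrays for named genes, 11 held 1 array far from the other 3, by a gap that took up most of the group's range (Dixon's 95% limit). Chance gives about 1 in 20 groups. In the control of experiment 4, SERPINB2 was at 10.84 (others 8.52 to 8.62), CXCL8 at 12.78 (9.82 to 10.04) and IL6 at 11.01 (9.18 to 9.37). In the irradiated array of experiment 3, CXCL8 was at 11.96 (14.06 to 14.49), MMP1 at 13.87 (15.14 to 15.30), VCAN at 14 (12.87 to 12.96) and ACTG2 at 14.99 (16.71 to 16.86). In the irradiated array of experiment 4, LIF was at 14.72 (13.22 to 13.30), TNFRSF10B at 14.21 (14.02 to 14.05) and FZD2 at 10.55 (11.35 to 11.47). ATF4 in the control of experiment 2 was at 16.3 (17.14 to 17.30).

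A difference between irradiated and bystander cells passed limma's test for 1 probe of BBC3, higher by 1.419, and 1 probe of GDNF, higher by 1.716, in 4 of 4 experiments each (adjusted p = 0.0984 for both).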

How the results depend on the processing

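The 253 probes called between irradiated and control cells became 129 at an adjusted p below 0.05, 166 with no scaling, 159 with the authors' value table, 51 with only the 8 arrays fitted, 592 with slide as a block, and 147 with scaling to added transcripts (chosen after seeing the data). With no replicate block, which ignores the pairing, they were 26. Leaving out 1 experiment gave 21 (experiment 1) to 334 (experiment 2). Of these calls 77.1% were higher, against 50.3% with added transcripts, 62.0% with the slide block, 89.9% at the stricter limit, 92.3% with no replicate block and 100% in the 8 arrays. The split was also 94.8% without experiment 3 and 90.5% without experiment 1. Median scaling, quantile normalization, normexp, the other filters and no variance trend gave 205 to 292.

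Of 2 probes called between irradiated and bystander cells, 0 were called at 0.05, with no, median or quantile scaling, the value table, either other filter, no replicate block, no variance trend, or any experiment left out (lowest and highest 0). The count was 22 with normexp and 68 with only the 8 arrays, both holding the 2, 1 with slide as a block, which was neither of them, and 5 with added transcripts, 1 of them shared. For this contrast these 4 settings, the value table and no variance trend were chosen after seeing the data. The time comparisons stayed at 0 in each setting run for them. Genes called in the lists numbered 57, with 8 (without experiment 1) to 51 (without experiment 4) when 1 experiment was left out. None of 61 called named genes changed sign in the 16 settings, but many of these settings could not reverse it. Without experiment 1, 7 of the 61 stayed called. The causes of these shifts were not tested. With 4 experiments a group, a ratio that is not called is not shown to be absent, and probes near background have only bounds.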

Other observations

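Of the 112 genes called higher 56 were outside every list, and several had large and even ratios. SLC16A6, a transporter of the monocarboxylate family, was at 1.77 ± 0.26 (limma, adjusted p = 0.00215), KYNU, an enzyme of tryptophan breakdown, at 1.55 ± 0.38 (adjusted p = 0.0037), and HSD11B1, which activates cortisol, at 1.49 ± 0.23 (adjusted p = 0.00444). The cytokine TSLP was also higher (adjusted p = 0.0208), and the tight junction protein CLDN1 and the Wnt inhibitor DKK1 were at 1.79 ± 0.66 and 1.60 ± 0.49. BLOC1S2, VWCE and E2F7, a repressor of cell cycle genes, were at 1.21, 1.53 and 1.43 in irradiated and at 0.43, 0.41 and 0.61 in bystander cells, and between these groups limma gave adjusted p of 0.272, 0.195 and 1.00 with all 12 arrays, while the fit of irradiated and bystander arrays alone, chosen after seeing the data, called all 3. Among the genes lower after irradiation the clock components PER1 and NR1D1 were at -0.89 ± 0.26 and -1.17 ± 0.39, the latter over 3 experiments because the control array of experiment 2 had no value for it. These genes were picked after their values were seen.

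Of 48 called genes with more than 1 tested probe 25 had a probe that was not called and 3 had a probe of the opposite sign.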
